A study of Mus musculus with 24 samples.

Results

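Hepatic expression of 10 genes of bile acid synthesis, transport and feedback was examined in Mup gene cluster knockout (KO) mice and wildtype (WT) littermates. The genes were taken by symbol from the gene counts, and all 10 of them were present among the 25746 genes listed and passed the filter on low counts. They are Cyp7a1, Cyp8b1, Cyp27a1, Cyp7b1 and Hsd3b7 for synthesis, Baat for conjugation, Slc10a1 and Abcb11 for transport, and Nr1h4 and Nr0b2 for feedback. The 24 livers came from 6 male WT (mWT), 6 male KO (mKO), 6 female WT (fWT) and 6 female KO (fKO) mice on the C57/BL6N background, all killed at 12 weeks of age. KO mice were homozygous for a CRISPR/Cas9 deletion of the whole Mup cluster on chromosome 4, which encodes the major urinary proteins, and they descended from 1 male founder, so all KO mice carry the same deletion event. No group received a drug, and all mice had free access to standard chow before a short fast, anaesthesia, imaging and tissue collection. The time of day at which each mouse was killed is not given in the sources used here.

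Bile acids are made in hepatocytes from cholesterol, either by the classic pathway, which starts with CYP7A1, or by the alternative pathway, which starts with CYP27A1 and continues with CYP7B1. They are joined to taurine or glycine by BAAT, exported into bile by the pump BSEP (Abcb11) and taken up again from portal blood, mainly by NTCP (Slc10a1). The nuclear receptor FXR (Nr1h4) senses bile acids and induces Abcb11 and the small heterodimer partner SHP (Nr0b2), which in turn represses Cyp7a1 and Cyp8b1, and hepatic Cyp7a1 is known to follow the feeding cycle and the circadian clock.

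Library depth ranged from 15361901 to 26261394 counts, and 12330 genes were tested. Values are given as CPM, counts scaled to a common library size by the TMM method. Mup reads were found in 3 of the 12 KO libraries, with at most 11 counts, whereas the WT library with the fewest had 70768. The summed level of 6 hepatocyte markers lay between 87367 and 143828 CPM in all 24 libraries. The sums of the other cell types were lower, the highest being that of the 4 stellate cell markers at 150 to 301 CPM. The 7 bile duct markers summed to 41.4 to 82.8 CPM, with Krt19, Krt7 and Cftr under the filter. Those of gut epithelium (3 markers) summed to 40.9 to 111 CPM, with Vil1 and Cdx2 under the filter. The 5 pancreatic acinar markers summed to at most 0.879 CPM, with Cel and Pnlip at 0 in all libraries. In bulk liver, fewer cells of a type and less RNA per cell cannot be told apart.

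None of the 10 genes passed the test for a KO effect in either sex, whereas 3 genes differed between the sexes in WT and 4 in KO mice. The largest KO difference was that of Cyp7a1 in males, which was below the study's unadjusted cut-off but did not pass adjustment over all genes. In mKO against mWT mice 0 of the 10 genes had an adjusted p under 0.05 in edgeR's quasi-likelihood test, where 0.211% of all genes tested did, and 1 of 10 (Cyp7a1) had an unadjusted p under 0.01, where 3.52% of all genes did. An unadjusted p under 0.05 was found for 4 of the 10 genes, compared with 10.6% of all genes. In DESeq2, 1 of the 10 genes, Cyp7a1, was called, where 1.94% of the 7310 genes over which it adjusted were. In fKO against fWT mice 0 of 10 genes were called, 0 had an unadjusted p under 0.01 and 0 had one under 0.05 (background 0.0892%, 0.876% and 4.87% in the same order). The KO effect averaged over the sexes gave 0 called genes (background 0.17%) and 1 gene, Cyp7a1, with an unadjusted p under 0.01 (background 2.83%), while 3 genes had one under 0.05 (background 9.57%). For the difference between the male and the female KO effect, 0 genes were called (background 0.00811%), 0 had an unadjusted p under 0.01 (background 1.16%) and 1 had one under 0.05 (background 5.96%). Between males and females, 3 of 10 genes were called in WT mice, all higher in males (background 17.3% in either direction), and 4 of 10 in KO mice, 3 higher and 1 lower in males (background 14.4%).

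The median log2 fold change of the 10 genes was 0.15 in mKO against mWT and 0.09 in fKO against fWT mice, and it was −0.0021 and −0.0026 over all genes tested. In males 7 of the 10 values were above 0 and 3 below, and in females 8 were above and 2 below. Over all genes tested, 6096 values were above 0 and 6229 below in males, and 6054 and 6273 in females.

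**Figure D1:**
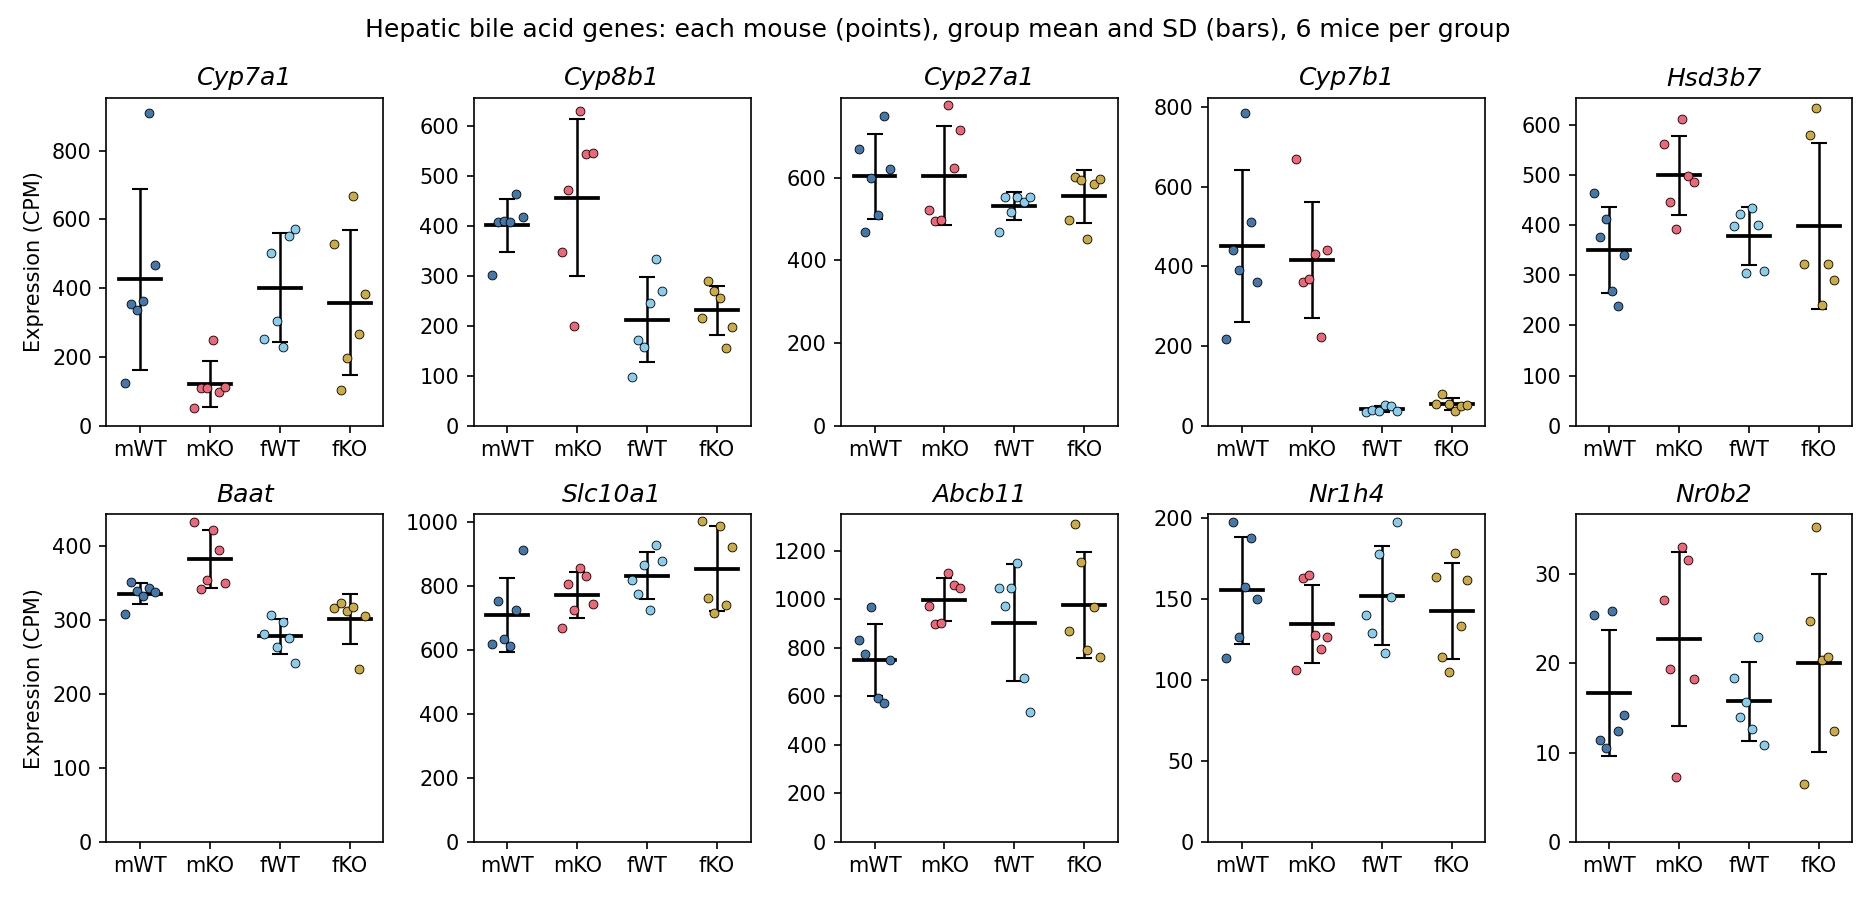
Expression (CPM, linear axis from 0) of the 10 bile acid genes in each mouse (points) with the group mean and SD (bars) for mWT, mKO, fWT and fKO, 6 mice each. The mKO mice lie low for Cyp7a1, at 50.8 to 248 CPM, and the female groups lie low for Cyp7b1, at 34.2 to 79.6 CPM.

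Cyp7a1 (ENSMUSG00000028240, GRCm38 chr4:6265612-6275633, minus strand) encodes cholesterol 7-alpha-hydroxylase, the rate-limiting enzyme of the classic pathway. It lies on the same chromosome as the Mup cluster, 53681171 bp away from it. Expression in mWT mice was 123 CPM at the lowest, 358 at the median and 910.3 at the highest. In mKO mice the corresponding values were 50.8, 109 and 248 CPM. The 6 mKO mice had 50.8, 108, 109, 248, 97.1 and 114 CPM in the order of their numbers, and 5 of them lay below every mWT mouse. The exception was mKO mouse 4 at 248 CPM, and the lowest mWT mouse was mouse 1 at 123 CPM. The mean of the mKO mice was 121 ± 66.4 CPM (SD, n = 6), against 425 ± 263 CPM (SD, n = 6) for mWT, a ratio of 0.285. The log2 fold change was −1.81 (standard error 0.471, 95% confidence interval −2.79 to −0.83), with an unadjusted p of 0.000962 and an adjusted p of 0.135 in edgeR. DESeq2 gave the same log2 fold change of −1.81 with an adjusted p of 0.0134, or 0.0177 when its p-values were adjusted over all 12330 genes. Without mWT mouse 1 edgeR's adjusted p was 0.0531, and without mWT mouse 5 it was 0.350.

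In females, Cyp7a1 expression spanned 228 to 571 CPM in fWT (median 403) and 104 to 667 CPM in fKO mice (median 324), so that the fKO range enclosed the fWT range. The log2 fold change was −0.17 (standard error 0.456, 95% confidence interval −1.12 to 0.78, adjusted p = 0.981), an interval that still covers a fall by over 1 on the log2 scale. The KO effect in males minus that in females was −1.64 (standard error 0.649, unadjusted p = 0.0196, adjusted p = 0.823), so a difference between the sexes was not shown. Averaged over the sexes, the KO effect on Cyp7a1 was −0.99 (standard error 0.326, unadjusted p = 0.00634, adjusted p = 0.302).

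The spread of Cyp7a1 within groups was wide, with a coefficient of variation of 61.8% in mWT, 54.8% in mKO, 39.2% in fWT and 59.1% in fKO mice. Baat, by comparison, had coefficients of 4.31% to 11.1%. Of 11 clock genes tested, 0 passed adjustment for a KO effect in either sex, and 3 (Per2, Per3 and Clock) had an unadjusted p under 0.05 in males, where 10.6% of all genes did. In females Arntl and Nfil3 had an unadjusted p under 0.05, where 4.87% of all genes did. Per2, a repressor of the clock, had a log2 fold change of −1.11 in mKO against mWT mice (unadjusted p = 0.00462, adjusted p = 0.216) and of −0.19 in females (adjusted p = 0.967). Per3 had −1.05 in males (unadjusted p = 0.0192, adjusted p = 0.354) and Clock 0.51 (unadjusted p = 0.0231, adjusted p = 0.369). Arntl, the partner of CLOCK in the activating arm, had 1.36 in males (unadjusted p = 0.0774) and 1.63 in females (unadjusted p = 0.0377, adjusted p = 0.929). The other 7 had male values from −0.48 for Dbp to 0.69 for Nr1d1, with Cry1 at −0.23, Nr1d2 at −0.11 and Nfil3 at 0.097. For Nfil3 the female value was 0.67 (unadjusted p = 0.0299, adjusted p = 0.929). The part of these differences in the Cyp7a1 result was not tested.

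**Figure D2:**
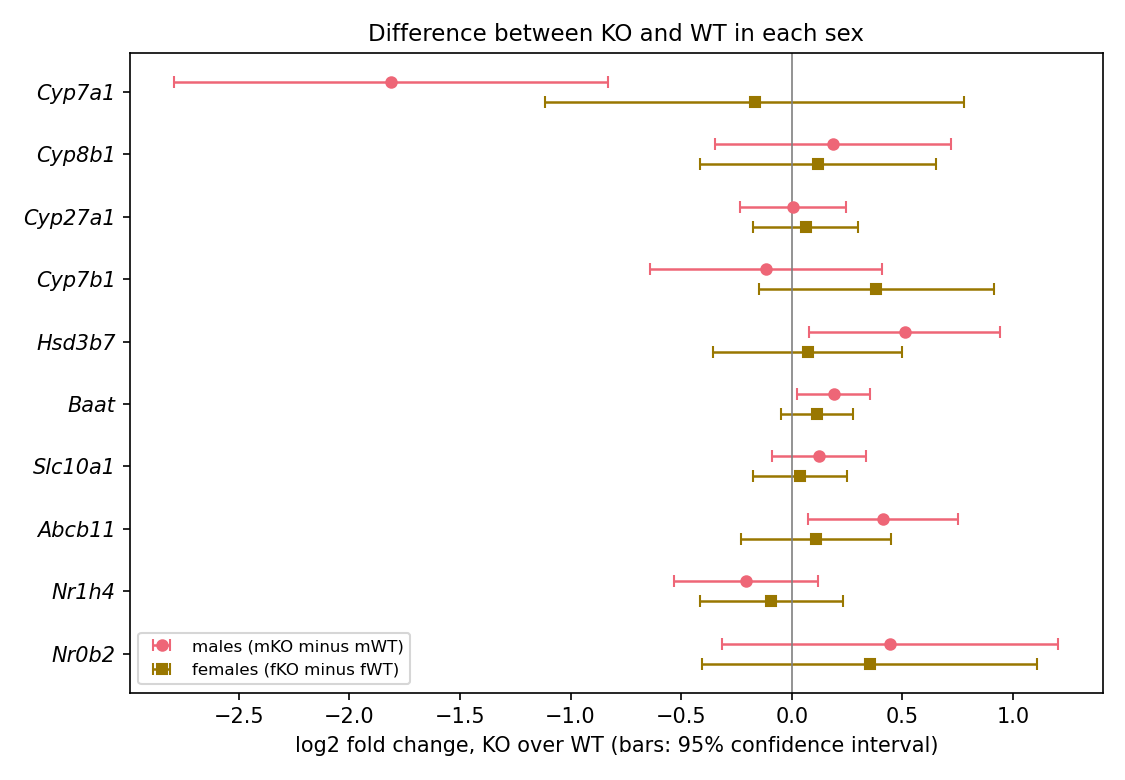
Log2 fold change (x axis) of KO over WT mice for the 10 genes in males (circles) and females (squares), with 95% confidence intervals from edgeR as bars. For Cyp7a1 the male value is −1.81 and the female value −0.17, and no gene passed an adjusted p of 0.05 in either sex.

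Cyp8b1 (ENSMUSG00000050445, chr9:121914356-121916305, minus strand, a single exon) encodes the hydroxylase that directs synthesis towards cholic acid. It was higher in males than in females at both genotypes. The mWT mice had 302 CPM at the lowest, 408 at the median and 463 at the highest, and the fWT mice 98.2, 208 and 332 CPM. All mWT mice but mouse 1, at 302 CPM, lay above every fWT mouse. The log2 fold change of mWT against fWT was 0.92 (standard error 0.259, adjusted p = 0.0165), a ratio of means of 1.89. In KO mice the range was 200 to 628 CPM in males (median 507) and 156 to 289 CPM in females (median 236), and 5 of the 6 mKO mice lay above all fKO mice. The log2 fold change of mKO against fKO was 0.98 (standard error 0.259, adjusted p = 0.0118). The exception was mKO mouse 3 at 200 CPM, and the coefficient of variation was 34.4% in mKO and 13.3% in mWT mice. The KO effect was 0.19 in males (95% confidence interval −0.35 to 0.72, adjusted p = 0.878) and 0.12 in females (−0.41 to 0.65, adjusted p = 0.974). Of the 6 mKO mice, 4 exceeded every mWT mouse and 1 lay below every mWT mouse.

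Cyp27a1 (ENSMUSG00000026170, chr1:74713574-74737892, plus strand), the mitochondrial sterol hydroxylase that opens the alternative pathway and shortens the side chain in both pathways, was similar in level in all 4 groups. Its means were 603 ± 103, 605 ± 120, 531 ± 33.6 and 555 ± 63.8 CPM (SD, n = 6 each) in mWT, mKO, fWT and fKO mice. The KO effect was 0.01 in males (95% confidence interval −0.23 to 0.24) and 0.06 in females (−0.18 to 0.30), intervals that lie within 0.30 of 0 on the log2 scale. The male excess of 0.18 in WT mice was not called (adjusted p = 0.300).

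Cyp7b1 (ENSMUSG00000039519, chr3:18071950-18243338, minus strand), the oxysterol hydroxylase of the alternative pathway, is known as a male-predominant liver gene in mice and showed the largest sex difference of the 10 genes. The mWT mice had 216 CPM at the lowest, 417 at the median and 786 at the highest, and the fWT mice 34.2, 39.0 and 51.4 CPM. The mKO mice had 224, 400.3 and 669.7 CPM, and the fKO mice 36.1, 52.9 and 79.6 CPM. At both genotypes the lowest male exceeded the highest female. The ratio of means was 10.8 in WT mice (log2 fold change 3.43, standard error 0.278, adjusted p = 6.51e-09) and 7.65 in KO mice (2.93, standard error 0.272, adjusted p = 7.30e-08). The KO effect was −0.12 in males (95% confidence interval −0.64 to 0.41) and 0.38 in females (−0.15 to 0.92, unadjusted p = 0.150), and the difference between these effects was −0.50 (standard error 0.360, adjusted p = 0.896). In females 3 of the 6 fKO mice lay above all fWT mice.

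Hsd3b7 (ENSMUSG00000042289, chr7:127800604-127803802, plus strand) encodes the steroid dehydrogenase that acts on the hydroxylated sterols of both pathways. Its exons overlap those of 2 other listed genes, Gm49388 on the same strand and 9430064I24Rik on the opposite strand, and the setting used to assign such reads is not given in the sources used here, so its counts are uncertain. In mWT mice Hsd3b7 had 240 CPM at the lowest, 359 at the median and 465 at the highest, and in mKO mice 392, 493 and 613 CPM, with 4 mKO mice above every mWT mouse. The log2 fold change was 0.51 in males (standard error 0.208, 95% confidence interval 0.08 to 0.94, unadjusted p = 0.0221, adjusted p = 0.366). In females the range of the fKO mice (240 to 634 CPM) enclosed that of the fWT mice (305 to 435 CPM), with a log2 fold change of 0.07 (adjusted p = 0.981). The 6 fKO mice were split, with mice 2 and 3 at 580 and 634 CPM and the other 4 at 240 to 322 CPM.

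Baat (ENSMUSG00000039653, chr4:49489422-49506557, minus strand), the enzyme that conjugates bile acids with taurine or glycine, lies 10450247 bp from the Mup cluster. It was the least variable of the 10 genes in mWT mice, with 309 CPM at the lowest, 338 at the median and 351 at the highest, and every mWT mouse exceeded every fWT mouse (242, 278 and 307 CPM). In KO mice the values were 342, 374 and 433 CPM in males and 234, 314 and 322 CPM in females, again without overlap. The male excess was small, a ratio of means of 1.21 in WT (log2 fold change 0.27, standard error 0.0794, adjusted p = 0.0177) and 1.27 in KO mice (0.35, standard error 0.0794, adjusted p = 0.00335). The KO effect was 0.19 in males (95% confidence interval 0.03 to 0.35, unadjusted p = 0.0248, adjusted p = 0.376) and 0.12 in females (−0.05 to 0.28, adjusted p = 0.929), with 4 mKO mice above all mWT mice and 4 fKO mice above all fWT mice. Averaged over the sexes it was 0.15 (unadjusted p = 0.0115, adjusted p = 0.362).

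**Figure D3:**
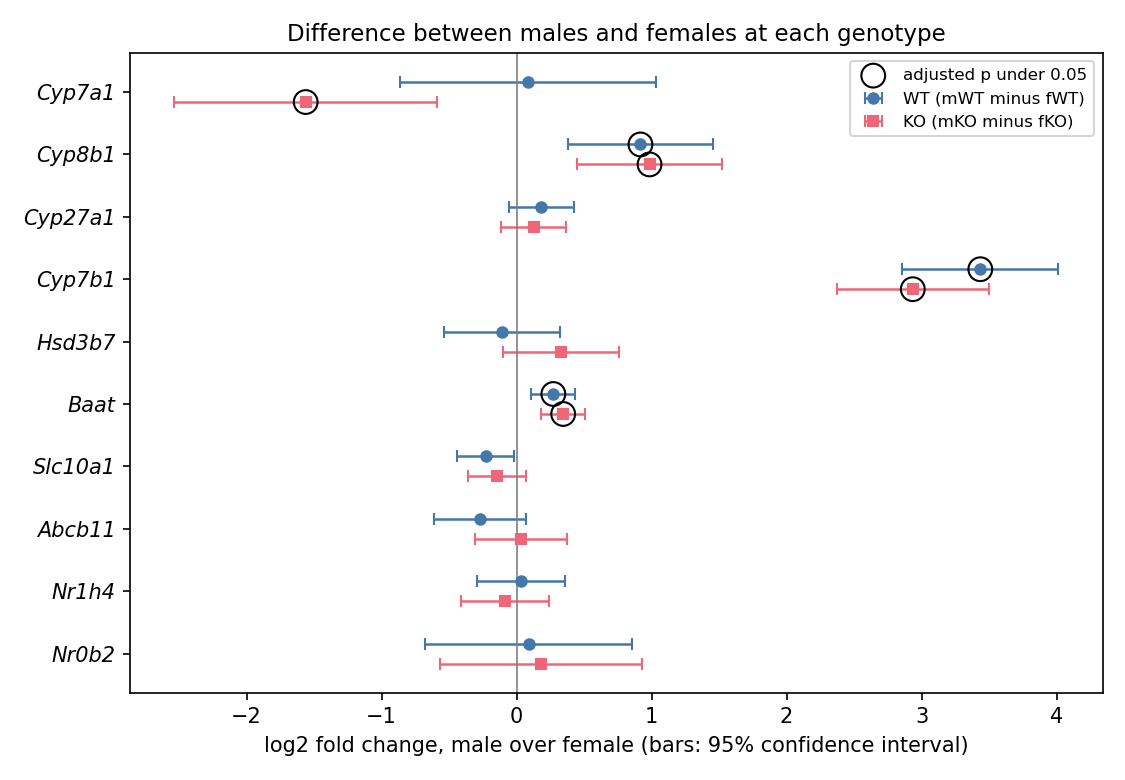
Log2 fold change (x axis) of males over females for the 10 genes in WT (circles) and KO mice (squares), with 95% confidence intervals from edgeR as bars and rings around values with an adjusted p under 0.05. Cyp7b1, Cyp8b1 and Baat are ringed on the male side at both genotypes, and Cyp7a1 is ringed on the female side in KO mice only, while the difference between the 2 genotypes was not called.

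The fourth gene called between the sexes in KO mice was Cyp7a1, which was lower in mKO than in fKO mice (log2 fold change −1.56, standard error 0.467, adjusted p = 0.0279), although the groups overlapped and only 2 of the 6 mKO mice lay below every fKO mouse. This call was lost in a fit of the KO mice alone (adjusted p = 0.0623) and in 7 of the 24 fits that each left out 1 mouse, with adjusted p-values of 0.0113 to 0.0772. In WT mice the sexes differed by 0.08 (95% confidence interval −0.87 to 1.03, adjusted p = 0.927). The 2 sex differences set side by side do not show a difference between genotypes, since their difference is the −1.64 given above, with an adjusted p of 0.823. The sum of the 5 Kupffer cell markers, all above the filter, lay higher in females at the median. Its range was 65.3 to 132 CPM in mWT, 63.8 to 177 in mKO, 117 to 218 in fWT and 99.9 to 172 CPM in fKO mice. The sums for hepatocyte, stellate cell, sinusoidal endothelial and leukocyte markers also had higher medians in females. In mWT, mKO, fWT and fKO mice these medians were 98532, 106706, 112216 and 117876 CPM for 6 hepatocyte markers. They were 209, 208, 259 and 248 CPM for 4 stellate cell markers and 118, 119, 152 and 140 CPM for 5 sinusoidal endothelial markers. For 4 leukocyte markers, of which Cd3e and Cd79a were under the filter, they were 6.07, 6.08, 10.2 and 7.78 CPM. The bile duct and gut epithelium sums had lower medians in females at both genotypes. For bile duct the WT medians were close, at 58.0 CPM in mWT and 57.8 in fWT mice. Its list holds the transporter gene Slc10a2, with means of 28.5, 28.0, 10.9 and 17.0 CPM in mWT, mKO, fWT and fKO mice. Slc10a2 was itself called higher in mWT than in fWT mice by edgeR (1.37, adjusted p = 0.00117), so this sum does not track bile duct cells alone. Of the gut markers only Fabp2 was above the filter. The part of cell composition in the sex differences was not tested.

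Of the transporters, Slc10a1 (ENSMUSG00000021135, chr12:80953183-80968705, minus strand) encodes NTCP, the sodium-coupled carrier that takes up conjugated bile acids. Its level was the highest of the 10 genes per kilobase of exon, with means of 323 to 389 CPM per kb in the 4 groups. The KO effect was 0.12 in males (95% confidence interval −0.09 to 0.34) and 0.04 in females (−0.17 to 0.25), and the mKO range (669 to 858 CPM) lay inside the mWT range (612 to 914 CPM). In WT mice males were lower by 0.23 on the log2 scale without passing the test (log2 fold change −0.23, adjusted p = 0.130), and 3 mWT mice lay below every fWT mouse.

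Abcb11 (ENSMUSG00000027048, chr2:69238282-69342616, minus strand) encodes BSEP, the canalicular export pump and a direct target of FXR. In mWT mice it had 573 CPM at the lowest, 764 at the median and 969 at the highest, and in mKO mice 897, 1010.4 and 1109 CPM. Here 4 of the 6 mKO mice lay above every mWT mouse. The log2 fold change was 0.41 in males (standard error 0.165, 95% confidence interval 0.07 to 0.75, unadjusted p = 0.0192, adjusted p = 0.354) and 0.11 in females (−0.23 to 0.45, adjusted p = 0.962). The female groups were more spread, with 537 to 1148 CPM in fWT and 761 to 1312 CPM in fKO mice. Between the sexes, Abcb11 differed by −0.27 in WT and 0.03 in KO mice, with adjusted p-values of 0.278 and 0.922.

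The bile acid receptor gene Nr1h4 (ENSMUSG00000047638, chr10:89454234-89533585, minus strand) had means of 155 ± 33.0, 134 ± 23.8, 152 ± 30.5 and 143 ± 29.8 CPM (SD, n = 6 each) in mWT, mKO, fWT and fKO mice. The KO effect was −0.21 in males (95% confidence interval −0.53 to 0.12) and −0.09 in females (−0.42 to 0.23), and the sexes differed by 0.03 in WT and −0.08 in KO mice. Nr0b2 (ENSMUSG00000037583, chr4:133553376-133556536, plus strand, 71402513 bp from the Mup cluster), which encodes SHP, was the lowest of the 10 genes per kilobase of exon, at group means of 13.9 to 20.1 CPM per kb. In mWT mice it had 10.6 CPM at the lowest, 13.3 at the median and 25.8 at the highest, and in mKO mice 7.22, 23.2 and 33.0 CPM. The ranges overlapped, as they did in fWT (10.8, 14.8 and 22.9 CPM) and fKO mice (6.43, 20.6 and 35.2 CPM). The KO effect on Nr0b2 was 0.45 in males (95% confidence interval −0.32 to 1.21, adjusted p = 0.744) and 0.35 in females (−0.40 to 1.11, adjusted p = 0.946), and both intervals include 0 as well as a log2 fold change of 1.

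Per kilobase of exon, the scale on which levels of different genes can be set side by side, the order of the group means in mWT mice was Slc10a1 (323 CPM per kb), Cyp27a1 (277), Cyp7b1 (208), Cyp8b1 (205), Baat (173), Abcb11 (146), Hsd3b7 (127), Cyp7a1 (102), Nr1h4 (67.4) and Nr0b2 (14.7). Neighbours in this order differed by less than the larger of their SDs between mice, except Cyp8b1 against Baat and Nr1h4 against Nr0b2. In fWT mice Cyp7b1 stood at 19.3 CPM per kb, next to Nr0b2 at 13.9. In mKO mice Cyp7a1 stood at 29.0 CPM per kb, below Nr1h4 at 58.4.

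Upstream sequences from the RefSeq table of GRCm38.p6 were found for 7 of the 10 genes, all but Cyp7a1, Cyp7b1 and Baat. The export pump, the repressor and the synthesis gene among them that is regulated by SHP are steps of the FXR feedback described above. For these genes the sequences of the 250 bases before the start are printed. Each is written 5′ to 3′ on the strand of its gene, in lower case with matches to the searched motifs in capitals.
Abcb11, chr2:69342617-69342866, minus strand: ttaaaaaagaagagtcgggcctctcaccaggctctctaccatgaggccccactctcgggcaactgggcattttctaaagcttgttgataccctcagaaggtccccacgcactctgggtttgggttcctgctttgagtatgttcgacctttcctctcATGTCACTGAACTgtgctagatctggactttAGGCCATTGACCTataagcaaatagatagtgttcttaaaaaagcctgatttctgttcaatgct
Nr0b2, chr4:133553126-133553375, plus strand: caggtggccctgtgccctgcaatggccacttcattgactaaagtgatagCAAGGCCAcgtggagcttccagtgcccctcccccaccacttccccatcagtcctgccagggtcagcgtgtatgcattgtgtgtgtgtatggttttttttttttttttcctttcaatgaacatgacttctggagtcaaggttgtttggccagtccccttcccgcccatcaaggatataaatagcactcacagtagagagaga
Cyp8b1, chr9:121916306-121916555, minus strand: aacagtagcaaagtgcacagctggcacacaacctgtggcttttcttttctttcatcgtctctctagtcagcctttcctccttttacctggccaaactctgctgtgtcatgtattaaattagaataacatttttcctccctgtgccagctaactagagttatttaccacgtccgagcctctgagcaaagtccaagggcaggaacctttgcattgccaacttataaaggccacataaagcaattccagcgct
Searched was an inverted repeat of AGGTCA and TGACCT 1 base apart with at most 2 mismatches, the form that FXR is known to bind. The same half-site was searched as a direct repeat 1 base apart with at most 2 mismatches. The letters CAAGGTCA and CAAGGCCA, the form known for LRH-1 (Nr5a2), were searched exactly. All searches covered both strands. Upstream of Abcb11 the inverted repeat matched at −94 to −82 and at −63 to −51, counted from the base before the start as −1, and 0.959% of 32851 RefSeq upstream windows of the same length held such a match. Upstream of Nr0b2 the letters CAAGGCCA stood at −201 to −194 (1.99% of windows), and CAAGGTCA, held by 1.33% of windows, was found upstream of none of the 7 genes. The direct repeat (3.24% of windows) matched at −221 to −209 from a RefSeq start of Nr1h4 that lies inside the gene as given above, not at its outer end. The Cyp8b1 window held no match, nor did those of Cyp27a1, Hsd3b7 and Slc10a1. A match is a description of the letters and shows no binding.

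Other genes of the pathway were counted by list, and 0 of them were called for a KO effect in either sex (background 0.211% of all genes in males). Over all genes tested in males, 3.52% had an unadjusted p under 0.01, and 6096 values were above 0 and 6229 below. Of the 15 other synthesis and conjugation enzymes tested in mKO against mWT mice, 12 had values above 0 and 3 below, with a median of 0.10, and 3 had an unadjusted p under 0.01. These 3 were the peroxisomal acyltransferases Acnat2 (log2 fold change 1.25, adjusted p = 0.0804) and Acnat1 (0.51, adjusted p = 0.240), which are paralogs whose reads may be shared, and Acox2, the peroxisomal oxidase of the bile acid side chain (0.31, adjusted p = 0.152). Of the 11 other transporters, 0 had an unadjusted p under 0.01 in males, and the smallest p was that of the basolateral exporter Abcc3 (0.28, adjusted p = 0.326). Of the 14 other regulators, 0 had an unadjusted p under 0.01, and the smallest p was that of Klb, the co-receptor for the gut hormone FGF15 (0.26, unadjusted p = 0.0171, adjusted p = 0.340). Among 6 other FXR targets, 5 had values above 0 and 1 below in males, against 3 and 3 in females. Of these targets, Apoc2 had an unadjusted p of 0.00156 in males (0.39, adjusted p = 0.152). Of the 7 detoxification genes and the 8 genes of LXR targets and cholesterol supply, 0 had an unadjusted p under 0.01. Values above and below 0 in males were 6 and 5 for the transporters and 9 and 5 for the regulators. They were 2 and 6 for the LXR and cholesterol genes, and 4 and 1 for the 7 detoxification genes. Among the 7, Sult2a1 and Sult2a2 had a mean of 0 CPM in mWT and mKO mice, so they could not show a KO effect in males. In females, 0 genes of the 6 lists had an unadjusted p under 0.01.

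Between the sexes calls were common among all genes, at 17.3% in WT and 14.4% in KO mice, against which the counts in the same lists are to be read. Of the 15 other synthesis enzymes, 4 were higher and 3 lower in mWT than in fWT mice, among them Scp2, the peroxisomal thiolase and sterol carrier (1.48), and Acnat2 (−3.12). Of the 11 other transporters, 3 were higher and 3 lower in mWT mice, among them the uptake carriers Slco1a1 (1.87, adjusted p = 7.79e-05) and Slco1a4 (−1.68, adjusted p = 1.86e-05). Among the regulators, Klb (−0.48, adjusted p = 0.00151) and Nr1i3, which encodes the xenobiotic receptor CAR (−0.84, adjusted p = 0.0144), were lower in mWT than in fWT mice. In KO mice Nr1i3 was also lower in males (−0.93, adjusted p = 0.00824), while Klb was not called (−0.15, adjusted p = 0.359), and whether this differed between genotypes was not called for either gene. Of the 7 detoxification genes, 5 were lower and 1 higher in males at both genotypes, including Cyp2b10 (−3.73 in WT mice, adjusted p = 1.09e-06). Among these 5, Sult2a1 and Sult2a2 had a mean of 0 CPM in both male groups. They passed the filter on low counts through the female libraries only, which fixed the direction of their calls.

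Whether the 10 genes varied together from mouse to mouse was examined on log2 CPM after the mean of each group had been removed, so that differences between the groups do not enter. Of the 45 pairs, 8 had an adjusted p under 0.05 in a two-sided permutation test within groups, and 7 of these 8 also did by Spearman's rho. They joined Cyp7a1, Hsd3b7, Slc10a1, Abcb11 and Nr1h4. The 3 pairs among Cyp7a1, Slc10a1 and Nr1h4 were positive, as was the pair of Hsd3b7 and Abcb11, and both of these genes were negative against Cyp7a1 and Nr1h4. Slc10a1 did not pass against Hsd3b7 (r = −0.43, adjusted p = 0.302, rho = −0.36, adjusted p = 0.318) or Abcb11 (r = −0.40, adjusted p = 0.243, rho = −0.39, adjusted p = 0.258), and within the mKO mice r of these 2 pairs was 0.21 and 0.46. All values share libraries and TMM scaling factors, and the log2 CPM values of a library share its depth.

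The closest pair was Hsd3b7 and Nr1h4, with a Pearson r of −0.80 (adjusted p = 0.0018) and a Spearman rho of −0.77 (adjusted p = 0.00765). Without the 2 mice farthest from the median of Hsd3b7, r was −0.76, and within the groups it was −0.66 in mWT, −0.78 in mKO, −0.94 in fWT and −0.95 in fKO mice. The relation therefore had the same sign in all 4 groups. Hsd3b7 and Abcb11 had an r of 0.70 (adjusted p = 0.009) and a rho of 0.73 (adjusted p = 0.00855), with an r of 0.69 without the 2 farthest mice and of 0.43 to 0.92 within groups. Abcb11 and Nr1h4 had an r of −0.69 (adjusted p = 0.0132) and a rho of −0.69 (adjusted p = 0.0126), with −0.68 without the 2 farthest mice and −0.61 to −0.92 within groups. Mice with more FXR mRNA than others of their group thus had less Abcb11 mRNA.

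Cyp7a1 went with Slc10a1 (r = 0.67, adjusted p = 0.0209, rho = 0.69, adjusted p = 0.0126), with an r of 0.65 without the 2 farthest mice and of 0.48 to 0.84 within groups. It also went with Nr1h4 (r = 0.65, adjusted p = 0.0201, rho = 0.67, adjusted p = 0.0126). Without the 2 farthest mice its r with Nr1h4 was 0.56, and within groups this ran from 0.33 in mKO to 0.90 in fKO mice. Against Abcb11 its r was −0.60 (adjusted p = 0.0209, rho = −0.65, adjusted p = 0.0203, −0.53 without the 2 farthest mice), and within groups r was 0.46 in mKO mice and −0.59, −0.83 and −0.92 in mWT, fWT and fKO mice, a difference between groups that was not tested. Against Hsd3b7 r was −0.62 (adjusted p = 0.0358), but rho was −0.54 (adjusted p = 0.0969), r without the 2 farthest mice was −0.47, and within groups r ranged from −0.87 in fKO to 0.19 in mKO mice. For Slc10a1 and Nr1h4 r was 0.60 (adjusted p = 0.0358) and rho 0.60 (adjusted p = 0.0304), with 0.66 without the 2 farthest mice. Within groups it was 0.43 in mWT, 0.20 in mKO, 0.76 in fWT and 0.93 in fKO mice, differences that were not tested.

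The pair that the feedback loop would join most directly did not pass. Cyp7a1 and Nr0b2, the repressor of Cyp7a1, had an r of −0.33 (adjusted p = 0.397) and a rho of −0.37 (adjusted p = 0.303), and Abcb11 and Nr0b2, both targets of FXR, had an r of 0.23 (adjusted p = 0.439) and a rho of 0.23 (adjusted p = 0.493). Nr1h4 and Nr0b2 had an r of −0.54 (adjusted p = 0.0557) and a rho of −0.50 (adjusted p = 0.119). Cyp7a1 and Cyp8b1, both repressed by SHP, had an r of 0.31 (adjusted p = 0.358) and a rho of 0.32 (adjusted p = 0.318), though r was 0.96 in the 6 mWT mice and −0.31 in the 6 fKO mice.

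**Figure D4:**
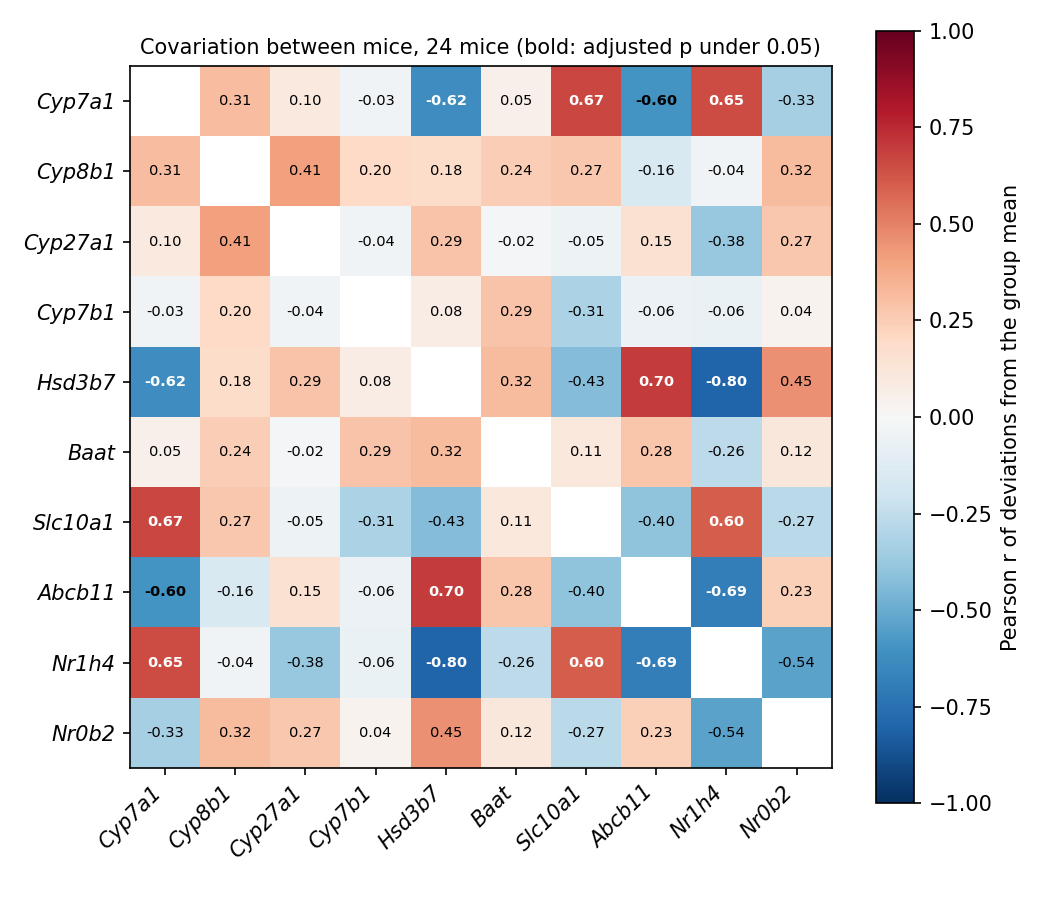
Pearson r between each pair of the 10 genes over 24 mice, computed on log2 CPM minus the group mean, on a colour scale from −1 to 1 with each value printed in its cell and those with an adjusted p under 0.05 in bold. Cyp7a1, Slc10a1 and Nr1h4 form one set of positive values, and Hsd3b7 and Abcb11 another, with −0.80 between Hsd3b7 and Nr1h4.

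The same deviations of Cyp7a1 were set against 11 clock genes. Cyp7a1 was lower in mice with more Nr1d1, which encodes the clock repressor REV-ERB alpha (r = −0.70, adjusted p = 0.00715, rho = −0.65, adjusted p = 0.026), and r was −0.59 without the 2 mice farthest from the median of Cyp7a1. Within groups r was −0.83 in mWT, −0.79 in fWT and −0.88 in fKO mice, but 0.22 in mKO mice, and this difference between groups was not tested. Cyp7a1 was higher in mice with more Per2 (r = 0.61, adjusted p = 0.0300, rho = 0.58, adjusted p = 0.0404), with 0.44 without the 2 farthest mice. Here r was 0.91 in mWT and 0.80 in fKO mice, but 0.17 in mKO and 0.22 in fWT mice. For Per3 r was 0.57 (adjusted p = 0.0459) but rho was 0.47 (adjusted p = 0.0998), with r at 0.41 without the 2 farthest mice. Within groups it was 0.67 in mWT and 0.86 in fKO mice, but 0.18 in mKO and 0.01 in fWT mice. These differences between groups were not tested either. The other 8 clock genes did not pass, Clock being the nearest (r = −0.53, adjusted p = 0.0691). Since the time of collection of each mouse is not given in the sources used here, its part in these relations was not tested.

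**Figure D5:**
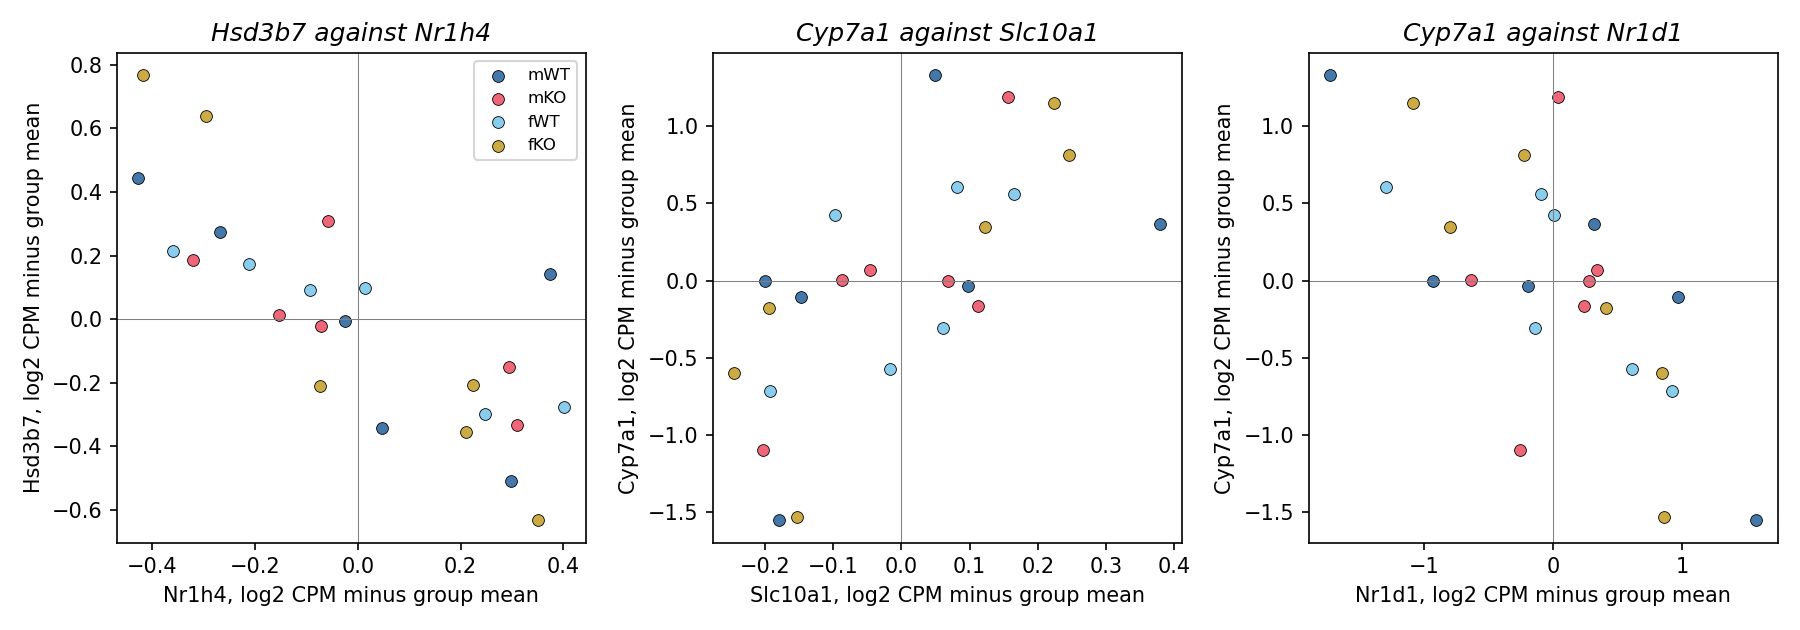
Deviations from the group mean (log2 CPM, both axes) for Hsd3b7 against Nr1h4, Cyp7a1 against Slc10a1 and Cyp7a1 against Nr1d1, with 1 point per mouse coloured by group (6 mice each). Pearson r over the 24 mice is −0.80, 0.67 and −0.70, and in the last panel r is 0.22 among the 6 mKO mice alone.

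Among all genes tested, those whose deviations were most like those of Cyp7a1 over the 24 libraries were Nol9 (r = 0.87), Mmachc (0.83) and Slc25a11 (0.83). For Abcb11 they were Slc30a10 (0.84), Gbp4 (0.82) and the clock gene Nr1d1 (0.82), and for Nr0b2 they were Cpeb2 (0.78), Irf2bp2 (0.78) and Nucb1 (0.73). These are descriptions of likeness, chosen as the highest of all genes, and carry no test.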

How the data were processed

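Each of the 24 livers gave 1 stranded mRNA library. Single-end reads were processed by the authors with fastp 0.20 (trimming), STAR 2.7a (alignment, build GRCm38.p6) and featureCounts (counting), as the submitters' processing notes and the methods say; the annotation release, the strand setting and the handling of reads with several matches are not given in the sources used here. The deposited values are unnormalized and unfiltered counts for Ensembl genes. Symbols and coordinates came from GENCODE M21 (GRCm38), which matched 25635 of the 25746 genes. Groups and mouse numbers came from the sample labels.

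Testing was limited to the 12330 genes that reached 0.66 CPM in 6 or more libraries, counts were scaled by TMM, and 1 mean per group was fitted to all libraries with edgeR 4.0.16 (R 4.3.3, quasi-likelihood test, robust dispersions). P-values were adjusted over all genes tested (Benjamini-Hochberg), and a gene was called at an adjusted p under 0.05; the study's cut-off, an unadjusted p under 0.01, was counted beside it. Confidence intervals are at 95%. Correlations used log2 CPM with a prior count of 2, 100000 resamples within groups and adjustment over the 45 pairs or the 11 clock genes; a 12th clock gene, Npas2, was under the filter. The 10 genes, the lists and the tests were chosen with earlier results of these data known. Beside them, up to 4 genes with the smallest p in each list were named, and the 3 most like Cyp7a1, Nr0b2 and Abcb11. The edgeR and DESeq2 fits were tested on simulated counts, and the other steps were not.

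Total counts of 15361901 to 26261394 put 3 counts, taken as the detection floor, at no more than 0.195 CPM, which covers counting error only. No 2 mice of the same group were as close as sampling noise allows, over 60 pairs (chi-square per gene at least 8.07). Alternatives were DESeq2 1.42.0, its size factors, no filter, filterByExpr, non-robust dispersions, a fit of the compared groups only, removal of the Mup genes, the mouse number as a block, and each mouse left out. Plots used matplotlib 3.10.9 under Python 3.11.15. The labels do not say that mice of a group came from separate litters or cages, so p-values measure the spread between these mice.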

Additional observations from a re-analysis of the deposited data

Results flagged for a closer look

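In 40 sets of 6 mice (10 genes in 4 groups), the gap between the lowest or highest mouse and its nearest neighbour, divided by the range of the group on the log2 scale, exceeded Dixon's 95% critical value for 6 samples in 2. Chance alone flags about 1 in 20 such sets. Cyp8b1 in mWT mouse 1 was 301.6 CPM, with the other 5 mWT mice at 406 to 463 CPM. The same mouse had the lowest Cyp7a1 of its group. Baat in fKO mouse 5 was 233.8 CPM, with the other 5 fKO mice at 305 to 322 CPM. Without that mouse the difference between mKO and fKO mice in Baat was 0.28 on the log2 scale, against 0.35 with it.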

How the results depend on the processing

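Of the 460 log2 fold changes recomputed under alternatives other than leaving out a mouse, 456 kept their direction and their side of the threshold. In DESeq2, 1 of the 10 genes was called in mKO against mWT mice where edgeR called 0, namely Cyp7a1 (−1.81, adjusted p = 0.0134); DESeq2 called 142 genes there, and edgeR 26. Its own filter adjusted over 7310 genes, and over all 12330 genes it called 107, with Cyp7a1 at an adjusted p of 0.0177. The cause of the difference from edgeR was not tested. Over the other 7 alternatives the log2 fold change was −1.81 to −1.78 and edgeR's adjusted p 0.0957 to 0.183. The call of Cyp7a1 in mKO against fKO mice was lost when only those groups were fitted (−1.57, adjusted p = 0.0623). The fit of only the groups compared has no value for the averaged effect and the difference of effects, which use all 4 groups. Same-numbered mice were not paired: in 24 pairs of mice the correlation of their deviations ranged from −0.45 to 0.37, and in 2 of these pairs the own number was the best partner. With the replicate number as a block, the numbers of called bile acid genes did not move, and 2 values near 0 changed sign, Cyp8b1 for males minus females (−0.075) and Cyp7a1 for mWT against fWT (−0.021).

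With each mouse left out in turn, 0 of the 10 genes were called for any KO effect, and 3 to 4 were called in each sex comparison: Cyp7a1 in mKO against fKO mice was lost in 7 of 24 fits (without mKO mouse 1, 2, 3, 5 or 6, or fKO mouse 1 or 4), and Slc10a1 was called as lower in mWT than in fWT mice without mWT mouse 6 (−0.32, adjusted p = 0.0327). Of 1440 such values 39 changed sign, all of them of genes not called in that comparison. Their ranges were −0.079 to 0.077 for Cyp27a1 and −0.31 to 0.12 for Cyp7b1 in mKO against mWT mice. In fKO against fWT mice they were −0.44 to 0.027 for Cyp7a1, −0.031 to 0.29 for Cyp8b1, −0.11 to 0.18 for Hsd3b7, −0.012 to 0.086 for Slc10a1 and −0.0036 to 0.19 for Abcb11. For the averaged effect the range was −0.0080 to 0.070 for Cyp27a1, and for males minus females −0.11 to 0.22 for Cyp8b1, −0.14 to 0.014 for Cyp27a1 and −0.089 to 0.33 for Nr0b2. In mWT against fWT mice they were −0.29 to 0.27 for Cyp7a1, −0.049 to 0.12 for Nr1h4 and −0.086 to 0.23 for Nr0b2, and in mKO against fKO mice −0.030 to 0.13 for Abcb11 and −0.00031 to 0.41 for Nr0b2. The counts of correlated pairs (8) and clock genes (3) did not move with a prior count of 0.5 or with DESeq2's size factors. With 6 mice a group, the intervals of the KO effects on Cyp7a1, Cyp8b1, Cyp7b1 and Nr0b2 are wider than 1 on the log2 scale in both sexes.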
